A study of Mus musculus with 18 samples.

Results

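Mammary organoids grown with EGF, NGS-Wnt and Rspo2 together (combined medium, ERW in the labels) were set against the mean of organoids grown with EGF alone (EGF medium) and with NGS-Wnt plus Rspo2 (RW medium). All 18 of the 18 RNA libraries of the series entered the comparison, and genes were described by whether the combined medium lay above both single media, below both, or between them. There were 3 libraries in each of 6 groups, in the order RasGRP1-/- (KO) in combined, EGF and RW medium and wild type (WT) in combined, EGF and RW medium. The labels number 3 batches, each with 1 library of every group, so that 6 sets of 3 media, 1 for each genotype in each batch, could be read side by side. All mice were C57BL/6 of 6 to 7 weeks. All cultures stood in matrigel, a gel of basement membrane proteins, under DMEM/F12 medium that carried an insulin-transferrin-selenium supplement, for 5 days of treatment. EGF was used at 2.5 nM, NGS-Wnt at 0.1 nM and Rspo2 at 8.3 nM, with the same doses in the combined medium. The labels do not say which part of Rasgrp1 the KO allele lacks, nor whether the organoids of 1 batch came from the same mice, and p-values then measure the spread between these cultures.

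As background, EGF binds the EGF receptor on epithelial cells and drives Ras and ERK signaling, while NGS-Wnt, an engineered surrogate Wnt ligand, and Rspo2 (R-spondin 2), which keeps Wnt receptors at the cell surface, drive beta-catenin signaling. RasGRP1 is an exchange factor that loads Ras with GTP and is best known from lymphocytes. The mammary epithelium has an outer basal layer, contractile and marked by Krt5 and Krt14, and inner luminal cells, marked by Krt8 and Krt18, and both pathways are used in the growth and branching of the gland.

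Libraries held 24290097 to 31269899 counts, with 18926 to 22319 genes detected and 1.28% to 2.54% of counts from mitochondrial genes. Rasgrp1 had 25 counts over the 9 KO libraries, 5 of them at 0, against 145 over the 9 WT libraries (0.0988 ± 0.125 against 0.542 ± 0.254 CPM, counts divided by the TMM-adjusted library size, mean ± SD). Epithelial markers were high in every library, with Epcam between 870 and 1082 CPM in combined, 937 and 1163 CPM in EGF and 705 and 874 CPM in RW medium. RNA of other cells was present too. Fibroblast collagen Col1a1 lay between 149 and 478 CPM in combined, 265 and 1096 CPM in EGF and 244 and 1033 CPM in RW medium. Pdgfra, another fibroblast marker, had medians of 14.9 CPM in combined, 25.3 CPM in EGF and 14.5 CPM in RW medium. Its level in combined medium was thus lower than in EGF medium and near that of RW medium. The endothelial Pecam1 lay between 19.5 and 46.1 CPM in combined, 60.0 and 108 CPM in EGF and 61.2 and 136 CPM in RW medium. The adipocyte hormone gene Adipoq lay between 4.08 and 33.5 CPM in combined, 19.0 and 72.0 CPM in EGF and 35.4 and 132 CPM in RW medium, and Ptprc, which marks leukocytes, did not exceed 1.57 CPM. The T cell gene Cd3e was at 0 except for 1 count in 1 combined-medium library. Batches stood apart: of the variance, 19.4% fell on the first principal component, 56.9% of it between batches, and 17.3% on the second, 79.5% of it between media. The batch was a term of every fit unless stated.

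The combined medium changed the RNA of many genes relative to the mean of the single media. Of 17092 genes tested with the quasi-likelihood F-test of edgeR (log2 scale, Benjamini-Hochberg adjusted p under 0.05, called hereafter), 4162 were called, which is 24.4% of those tested. They were 2091 higher genes (12.2%) and 2071 lower genes (12.1%), and the median difference over all tested genes was 0.011. A difference from the mean also arises where the combined medium equals 1 of the single media, so each medium was tested separately. Against EGF medium 2298 genes were higher (13.4%) and 2473 lower (14.5%), and against RW medium 1888 were higher (11.0%) and 2033 lower (11.9%). Genes called in the same direction against each of them numbered 570 above both (3.33% of the tested genes) and 1064 below both (6.23%), together 39.3% of the called genes. The other 2528 called genes comprised 606 nearer to EGF medium, 772 nearer to RW medium and 1150 whose EGF and RW levels were not called different. Both comparisons share the combined-medium libraries. The counts depended on the batches: without the batch term 1277 genes were called and 497 were beyond both, without batch 1 these were 2663 and 874, and without batch 3 they were 1822 and 738.

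**Figure D1:**
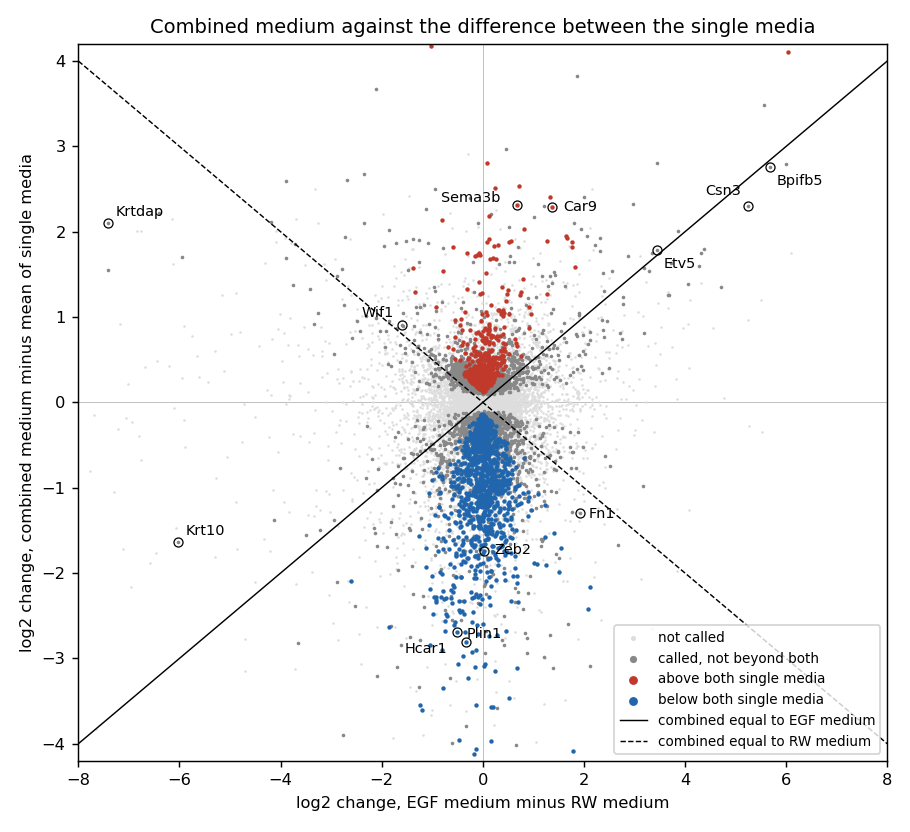
Log2 difference of the combined medium from the mean of the single media (y axis) against the log2 difference of EGF medium from RW medium (x axis), 1 point for each of 17092 tested genes except the 28 outside the axes. Points on the solid line are at the EGF level and points on the dashed line at the RW level, and the 570 genes above both and 1064 genes below both (colored) lie in the upper and lower sectors between the lines.

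Agreement of single libraries was checked against these calls. Of the 570 genes above both, 448 were above both single media in all 6 sets, against 4.59% of all tested genes, and of the 1064 genes below both, 809 were below in all 6 sets, against 6.00% of all tested genes. Complete separation of the 6 combined-medium libraries from the 12 others was rarer. It was seen for 38 genes of the 570 (0.240% of all tested genes lay wholly above) and for 149 genes of the 1064 (0.889% lay wholly below). These counts rest on the same libraries as the calls and are a description of them.

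Ranked by their difference from the nearer single medium, the 12 genes farthest above both were a mixed group of secreted, secretory and metabolic genes. Sema3b, a secreted semaphorin, had 10.7, 37.8 and 55.9 CPM as lowest, median and highest of the 6 libraries in combined medium, against 5.89, 7.59 and 10.4 CPM in EGF and 2.72, 4.38 and 9.38 CPM in RW medium. No combined-medium library overlapped a single-medium one, and Sema3b was 3.92-fold higher than in EGF medium (adjusted p = 0.000324, edgeR) and 6.27-fold higher than in RW medium (adjusted p = 3.31e-05). Bhlha15 (Mist1), a transcription factor of secretory cells, had 4.83, 15 and 19.9 CPM in combined, 2.23, 3.60 and 6.05 CPM in EGF and 0.865, 1.54 and 2.44 CPM in RW medium. Its ranges overlapped between combined and EGF medium by 1 low KO library, and its folds were 3.35 over EGF and 8.37 over RW medium. Espn, an actin bundler of microvilli and stereocilia, had 21.6, 27.8 and 116 CPM in combined, 8.92, 9.99 and 17.9 CPM in EGF and 8.01, 11.5 and 19.0 CPM in RW medium, with no overlap. Rflna (refilin A), a partner of the actin crosslinker filamin, also separated completely, with 6.57, 12 and 15.2 CPM in combined, 1.83, 3.06 and 5.05 CPM in EGF and 1.62, 3.80 and 6.52 CPM in RW medium. Thrsp (Spot 14), which promotes lipid synthesis in the lactating gland, was the fourth of these genes without overlap, at 7.49, 12.8 and 21 CPM in combined, 2.55, 4.62 and 5.02 CPM in EGF and 2.61, 3.12 and 5.28 CPM in RW medium. Arginase 1 (Arg1), which splits arginine to ornithine and urea, was 3.60-fold over EGF and 3.94-fold over RW medium. Pglyrp1, an antibacterial protein that binds peptidoglycan, was 3.74-fold over EGF and 3.01-fold over RW medium. The remaining 5 of the 12 were Oas2, Oas1a and Apol9a, described with the interferon genes, and Ndufa4l2 and Car9, described with the hypoxia genes. All 12 were above both single media in 6 of 6 sets, which their choice favors.

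**Figure D2:**
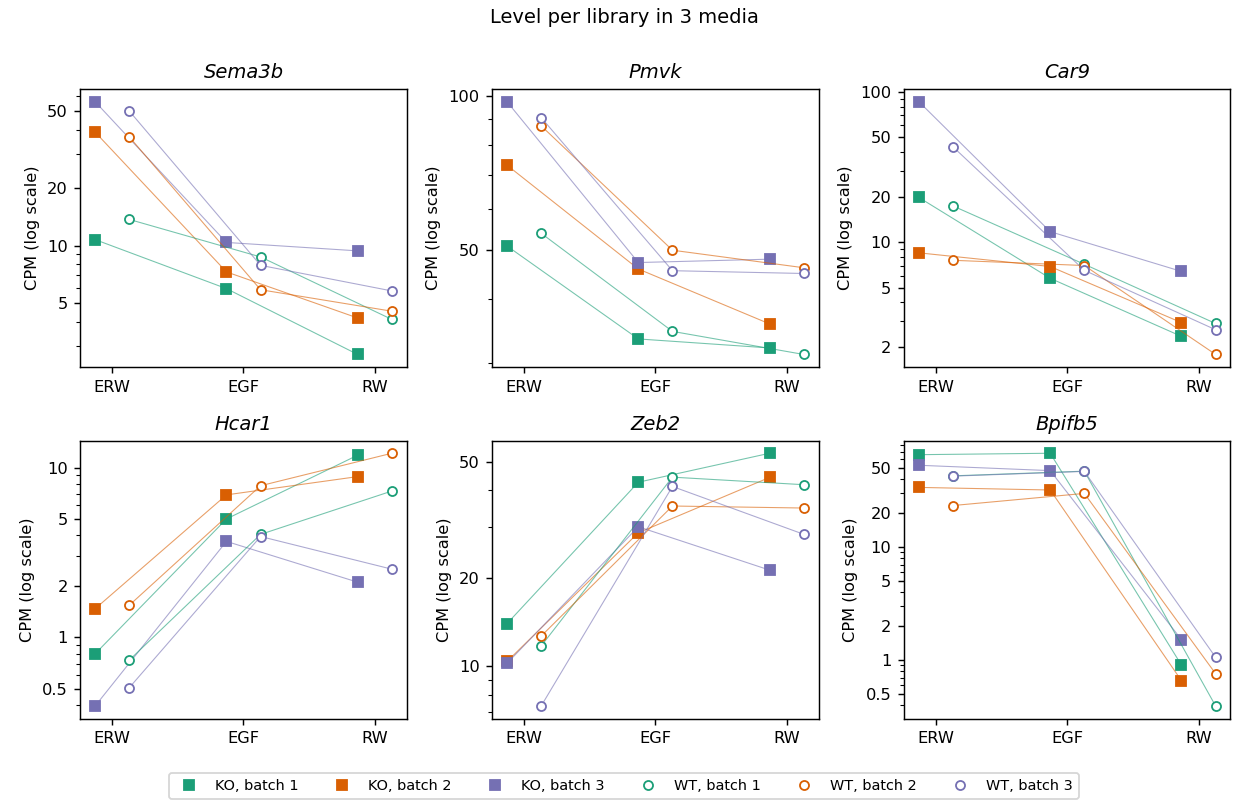
Level of 6 genes in every library (CPM, log axis), by medium with combined medium (ERW) at the left, squares for KO and circles for WT, colored by batch, with lines joining the libraries of 1 set. Sema3b and Pmvk in combined medium lie above all single-medium libraries and Hcar1 and Zeb2 below them, Car9 in batch 2 is close to EGF medium, and Bpifb5 matches EGF medium.

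Cholesterol synthesis genes rose together. The list of 22 enzymes and regulators had 22 called higher and 0 lower against the mean of the single media (12.2% and 12.1% of all tested genes), and 20 above both (3.33% of all), with a median difference of 0.63 against 0.011 for all tested genes. The median was 0.54 against EGF and 0.77 against RW medium, beside 0.0083 and 0.00099 for all tested genes. Sc5d, of the late steps of the pathway, differed by 0.34. Pmvk, which phosphorylates mevalonate phosphate, had no overlap, with 50.8, 80.2 and 97.4 CPM in combined, 33.4, 45.6 and 49.8 CPM in EGF and 31.1, 40.3 and 47.9 CPM in RW medium. It differed by 0.85 ± 0.07 (SE) on the log2 scale from the mean of the single media (adjusted p = 2.54e-07, edgeR). Mvd, the decarboxylase that makes isopentenyl diphosphate, was 1.80-fold over EGF and 1.85-fold over RW medium, and Idi1, which isomerizes that product, was 1.82-fold and 1.98-fold. The members not above both were Fdps and Insig1, with adjusted p = 0.0742 and 0.0951 against EGF medium (edgeR). In the 6 sets the list's median difference from the mean of the single media was 0.48, 0.66 and 0.82 in KO and 0.42, 0.58 and 0.84 in WT for batches 1 to 3, so that every set moved the same way. Without the batch term 7 of the 22 were called higher and 4 above both, the 20 above both became 12 without batch 3, and Idi1 lost its call without that batch (adjusted p = 0.0792, edgeR).

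Genes of this pathway are switched on by SREBP2 through sterol response elements near their start. Hmgcs1, the cytosolic HMG-CoA synthase, was chosen after the values were seen because its promoter alone among the 14 list members with a RefSeq promoter matched the letters searched. It had 151, 313 and 506 CPM in combined, 116, 167 and 314 CPM in EGF and 122, 168 and 361 CPM in RW medium, overlapping across batches yet above both in 6 of 6 sets. The 250 bases before its start (RefSeq, GRCm38.p6, chr13:119690101-119690350, plus strand), with the match to TCACNCCAC in capitals, are shown here.
Hmgcs1: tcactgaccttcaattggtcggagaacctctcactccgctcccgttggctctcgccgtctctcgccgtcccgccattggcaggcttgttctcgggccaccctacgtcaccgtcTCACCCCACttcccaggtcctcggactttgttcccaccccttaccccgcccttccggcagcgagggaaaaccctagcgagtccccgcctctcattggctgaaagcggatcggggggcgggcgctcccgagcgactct
Searched on both strands of 300 bases around each start, the letters were in 5.88% of the 17 promoters of list members, against 1.24% of the 32851 promoters in the table. A match is a description of letters, not a bound site.

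Interferon-stimulated genes were higher in combined medium too, and their summed level was highest in KO batch 3 in every medium. It was 2197, 1434 and 1090 CPM there in combined, EGF and RW medium. Of 26 listed genes 21 were called higher and 0 lower against the mean of the single media (12.2% and 12.1% of all tested genes), 13 were above both (3.33% of all), and the median difference was 0.91. The 5 members not called were Cxcl10, Ifit1, Ifit2, Ifit3 and Ifit3b, with differences between 0.13 and 0.90. Oas1a, an enzyme that makes the 2-5A signal upon sensing double-stranded RNA, had 9.53, 19.4 and 38.4 CPM in KO combined medium for batches 1 to 3, against 3.67, 4.76 and 20.7 CPM in KO EGF and 0.557, 4.24 and 13.1 CPM in KO RW medium. In WT it had 5.36, 11.7 and 16.2 CPM in combined, 2.24, 2.00 and 4.68 CPM in EGF and 1.64, 2.62 and 3.19 CPM in RW medium. The media overlapped across batches, with KO batch 3 high in every medium, whereas within each set the combined library was the highest. Irf7, the transcription factor that amplifies interferon induction, had 42.6, 133 and 424 CPM in combined, 27.5, 47.3 and 236 CPM in EGF and 22.2, 28.1 and 147 CPM in RW medium. It was 2.11-fold over EGF (adjusted p = 0.0155, edgeR) and 2.97-fold over RW medium (adjusted p = 0.00220). Oas2, a relative of Oas1a, was 3.45-fold over EGF and 3.20-fold over RW medium, and Oas3 was 2.52-fold over EGF medium without being called (adjusted p = 0.0555, edgeR). Apol9a was 3.05-fold over EGF and 4.48-fold over RW medium, and since Oas1a and Apol9a have near-identical neighbors the split of reads between copies is uncertain.

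The set medians of the interferon list were 0.93, 1.08 and 0.76 in KO and 0.22, 1.06 and 1.58 in WT for batches 1 to 3. The count of members above both was sensitive to single libraries: it was 6 without WT combined replicate 2 or KO combined replicate 3, 7 without WT EGF replicate 3, and 8 without WT combined replicate 3, WT EGF replicate 2, KO EGF replicate 1 or KO EGF replicate 2. Without batch 2 there were 4 members called higher and 1 above both, and without the batch term 6 and 0. Calls of single members were lost without batch 2 for Oas2 (adjusted p = 0.0722), Oas3 (0.0594) and Irf7 (0.0615, edgeR). The lymphocyte list had 1 of 4 tested members called lower (Trac, not called without batch 1 or 3, adjusted p = 0.189 and 0.125, edgeR) and 0 higher, with a summed level of 2.33 to 5.29 CPM in combined, 3.18 to 10.4 CPM in EGF and 2.97 to 7.08 CPM in RW medium, and its part in the interferon result was not tested. The promoters of Isg15, a ubiquitin-like modifier chosen after its values were seen, and of Oas1a are shown because they carry overlapping copies of the interferon-stimulated response element, the binding site of the interferon-activated complex, read here as GAAA, any 2 bases and GAAA again, with matches in capitals. Both are on the minus strand in RefSeq GRCm38.p6, at chr4:156200819-156201068 and chr5:120907526-120907775, each 250 bases up to the start.
Isg15: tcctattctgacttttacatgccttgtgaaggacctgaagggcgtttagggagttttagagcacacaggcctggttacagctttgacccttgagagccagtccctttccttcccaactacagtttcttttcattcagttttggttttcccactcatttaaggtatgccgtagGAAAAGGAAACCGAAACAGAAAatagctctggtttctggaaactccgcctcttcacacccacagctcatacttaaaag
Oas1a: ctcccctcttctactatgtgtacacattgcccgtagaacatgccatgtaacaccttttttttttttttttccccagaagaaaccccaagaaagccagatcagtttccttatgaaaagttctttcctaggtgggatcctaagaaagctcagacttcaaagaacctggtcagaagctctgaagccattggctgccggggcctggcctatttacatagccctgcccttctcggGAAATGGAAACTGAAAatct
The 3 overlapping matches of Isg15 begin 78, 72 and 66 bases before its start and the 2 of Oas1a begin 20 and 14 bases before. The letters were in the promoters of 12 of the 21 list members with one, or 52.2% of their 23 promoters, against 3.44% of all promoters in the table. Isg15 itself had 7.41, 25.5 and 70.6 CPM in combined, 6.38, 9.41 and 45.1 CPM in EGF and 5.28, 7.52 and 28.5 CPM in RW medium, with overlapping ranges, and was above both in 6 of 6 sets.

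Hypoxia and glycolysis genes were mostly higher as well. Of 25 genes 18 were called higher and 0 lower (12.2% and 12.1% of all tested genes), 10 were above both (3.33% of all), and the median difference from the mean of the single media was 0.63. Car9, the surface carbonic anhydrase that is a standard target of HIF-1, had 19.9, 8.52 and 86.3 CPM in KO combined medium for batches 1 to 3, against 5.77, 6.91 and 11.8 CPM in KO EGF and 2.37, 2.92 and 6.41 CPM in KO RW medium. In WT it had 17.5, 7.60 and 43.2 CPM in combined, 7.15, 7.02 and 6.52 CPM in EGF and 2.89, 1.80 and 2.62 CPM in RW medium. Batch 3 was highest and batch 2 lowest in combined medium, and batch 2 lay close to EGF medium. Car9 was 3.03-fold over EGF (adjusted p = 0.00864, edgeR) and 7.83-fold over RW medium (adjusted p = 0.000217). Egln3, a prolyl hydroxylase that marks HIF for decay and is itself induced by it, had 66.0, 124 and 247 CPM in combined, 48.3, 64.8 and 78.5 CPM in EGF and 8.50, 19.9 and 32.6 CPM in RW medium, with overlap between combined and EGF medium. Ndufa4l2, which lowers respiration in hypoxia, was 3.06-fold over EGF and 3.38-fold over RW medium. Ankrd37, another HIF target, was 1.97-fold and 2.09-fold, and the lactate exporter Slc16a3 was 2.75-fold over EGF medium without being called (adjusted p = 0.0737, edgeR).

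The hypoxia list varied with the batch. Its set medians from the mean of the single media were 0.77, 0.041 and 1.11 in KO and 0.51, 0.14 and 0.94 in WT for batches 1 to 3, and in batch 2 the medians against EGF medium were -0.12 in KO and -0.067 in WT. The 18 called higher became 8 without batch 1 and 10 without batch 3. Members above both numbered 0 without batch 1, 2 without batch 3 and 20 without batch 2, and 16 without KO combined replicate 2, 6 without KO EGF replicate 1 and 4 without the batch term. Single calls were lost without batch 1 for Ndufa4l2 (adjusted p = 0.081) and Ankrd37 (0.158), without batch 3 for Egln3 (0.0604), and without either for Slc16a3 (0.317 and 0.297, edgeR). The promoter of Car9 (RefSeq, GRCm38.p6, chr4:43506776-43507025, plus strand, 250 bases up to the start) is shown for the hypoxia response core ACGTG, found here on the other strand and printed in capitals.
Car9: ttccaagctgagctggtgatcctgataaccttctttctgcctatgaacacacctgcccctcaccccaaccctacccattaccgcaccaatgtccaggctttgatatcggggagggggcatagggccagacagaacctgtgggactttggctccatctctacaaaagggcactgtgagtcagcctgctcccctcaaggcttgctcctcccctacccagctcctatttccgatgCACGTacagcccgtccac
The core was in the promoters of 17 of the 24 list members with one, or 54.3% of their 35 promoters, against 19.6% of all promoters in the table. The letters for these 3 motifs were chosen after the values were seen.

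Several other genes above both were of the secretory and biosynthetic machinery. Xbp1, the transcription factor of the unfolded protein response and of secretory cells, had 479, 674 and 739 CPM in combined, 327, 359 and 410 CPM in EGF and 312, 327 and 385 CPM in RW medium, with no overlap. It differed by 0.84 ± 0.07 on the log2 scale from the mean of the single media (adjusted p = 2.12e-06, edgeR). Psat1, of serine synthesis, was 1.75-fold over EGF and 1.89-fold over RW medium (adjusted p = 1.03e-06 and 7.90e-08, edgeR). Slc7a5, a transporter of large neutral amino acids, was 1.29-fold and 1.63-fold, while the cystine transporter Slc7a11 was lower than in EGF medium (log2 difference -0.90 ± 0.16). Their list of 28 amino acid stress and unfolded protein response genes had 6 called higher and 2 lower, with 4 above both and a median of 0.03. Over all tested genes the shares were 12.2% higher, 12.1% lower, 3.33% above both and 6.23% below both. The 2 lower are no larger a share than that of all tested genes. Of 22 fatty acid synthesis genes 12 were called higher and 3 lower, with 7 above both and 2 below. The 3 lower and the 2 below are near the shares of all tested genes. Acacb, the mitochondrial acetyl-CoA carboxylase, was 2.36-fold over EGF and 1.61-fold over RW medium. The triglyceride enzymes Dgat2 and Agpat2 were below both, and Dgat2 had 17.7, 23.8 and 27.7 CPM in combined, 33.8, 47.7 and 74.2 CPM in EGF and 32.3, 42.6 and 52.8 CPM in RW medium, without overlap. Agpat2 was not called without batch 2 (adjusted p = 0.0917, edgeR). S100a8, a subunit of the antimicrobial protein calprotectin, was 2.19-fold over EGF and 6.84-fold over RW medium, and Igfbp2, a binder of insulin-like growth factors, was 3.91-fold and 1.55-fold. Folr1, the folate receptor of luminal progenitors, was 1.68-fold and 1.80-fold.

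Adipocyte genes fell, and theirs was the lowest median of the 37 lists. The 12 genes farthest below the nearer single medium were all below both in 6 of 6 sets, which their choice favors. Plin1, Plin4, Fabp4, Cd36, Adrb3, Lpl and Cidec among them are textbook fat cell genes. Hcar1, the lactate receptor of fat cells, had 0.395, 0.767 and 1.55 CPM in combined, 3.68, 4.51 and 7.82 CPM in EGF and 2.11, 8.07 and 12.2 CPM in RW medium. No combined-medium library reached a single-medium one, and the log2 differences were -2.64 ± 0.28 from EGF (adjusted p = 5.04e-06, edgeR) and -2.98 ± 0.28 from RW medium (adjusted p = 8.64e-07). Fabp4, the fatty acid binder of fat cells, had 29.6, 55.8 and 177 CPM in combined, 130, 360 and 519 CPM in EGF and 134, 565 and 759 CPM in RW medium. Its highest combined-medium library lay within the single-medium range. Plin1, the coat protein of lipid droplets, had 4.69, 9.90 and 46.8 CPM in combined, 34.7, 74.7 and 134 CPM in EGF and 38.8, 125 and 205 CPM in RW medium, a log2 difference of -2.69 ± 0.29 from their mean. Abcd2, a peroxisomal fatty acid transporter, and Pde3b, the phosphodiesterase by which insulin restrains lipolysis, differed by -2.57 and -2.28. Slc36a2, a small amino acid transporter, differed by -2.29, and Trarg1, a regulator of the glucose transporter Slc2a4, by -2.06. The list of 14 adipocyte markers had 12 called lower (12.1% of all tested genes), 11 below both (6.23% of all) and 0 higher, with a median of -2.39. Retn, the hormone resistin, differed by -2.49 from EGF and -3.31 from RW medium. Car3, a cytosolic carbonic anhydrase of fat, was at 0.163 CPM in combined, 0.356 CPM in EGF and 4.23 CPM in RW medium as medians, and was called against RW medium (adjusted p = 5.40e-05, edgeR) but not against EGF medium (adjusted p = 0.324).

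The summed adipocyte list was 301 to 782 CPM in combined, 612 to 1714 CPM in EGF and 597 to 2462 CPM in RW medium. In bulk RNA, fewer cells of a type and less RNA per cell cannot be told apart, here and for the cell types that follow. Set medians of the list were -3.06, -1.59 and -2.03 in KO and -2.94, -1.59 and -2.65 in WT for batches 1 to 3. Without the batch term 3 members were below both, and Adrb3 lost its call without batch 3 (adjusted p = 0.0629, edgeR).

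Nearly all endothelial genes were below both. Of 18 markers 17 were called lower (12.1% of all tested genes), all 17 of them below both (6.23% of all). Flt1 was not called against the mean (log2 difference -0.15), being called lower than in EGF medium and higher than in RW medium. Kdr, the main VEGF receptor, had 6.10, 15.6 and 27.5 CPM in combined, 31.5, 41.7 and 71.7 CPM in EGF and 29.7, 40.5 and 78.5 CPM in RW medium, with no overlap. Its log2 difference from the mean was -1.46 ± 0.24 (adjusted p = 0.000831, edgeR). Cdh5, the endothelial cadherin, and Tie1, an orphan receptor of vessels, also had no overlap, with medians of 58.8 and 17.9 CPM in combined, 152 and 47.2 CPM in EGF and 143 and 43.0 CPM in RW medium. Cldn5, the tight junction protein of vessels, was 2.63-fold lower than in either single medium, and Sox17, an arterial transcription factor, was 2.40-fold lower than in EGF and 2.82-fold lower than in RW medium. The summed list was 207 to 372 CPM in combined, 518 to 804 CPM in EGF and 443 to 907 CPM in RW medium. The count of 17 called lower was the same without any 1 library or any 1 batch, while the 17 below both became 15 to 16 without 1 batch.

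Fibroblast and matrix genes fell alongside. Of 18 fibroblast markers 13 were called lower and 10 were below both (12.1% and 6.23% of all tested genes), with a median of -0.98. Their summed level was 1638 to 3466 CPM in combined, 3205 to 6585 CPM in EGF and 2723 to 6584 CPM in RW medium. Gsn, an actin-severing protein abundant in fibroblasts, had 85.3, 114 and 177 CPM in combined, 206, 291 and 307 CPM in EGF and 231, 389 and 557 CPM in RW medium, with no overlap. Dpt and Dcn, small matrix proteins, had log2 differences of -1.62 and -1.50 from the mean of the single media, and Lum, a related proteoglycan, of -1.76. Of 27 collagen and basement membrane genes 20 were called lower and 18 were below both, with a median of -0.75. Col6a1, a chain of the microfibrillar collagen VI, had 187, 234 and 284 CPM in combined, 442, 581 and 729 CPM in EGF and 376, 494 and 680 CPM in RW medium, again with no overlap. Col6a2 and the basement membrane linker Nid1 also separated completely, with log2 differences of -1.27 and -1.13. Of 16 mesenchymal transcription factors and cadherins 14 were called lower and 11 below both (7 without batch 1), with a median of -0.84. Zeb2, a repressor of epithelial cadherin, had 7.33, 11.1 and 14.0 CPM in combined, 28.6, 38.3 and 44.3 CPM in EGF and 21.3, 38.3 and 53.5 CPM in RW medium, without overlap, a log2 difference of -1.74 ± 0.13 (adjusted p = 4.23e-07, edgeR). Twist1 and Twist2, basic helix-loop-helix factors of mesenchyme, differed by -1.56 and -1.20. Lum was not called without batch 1 (adjusted p = 0.0742) nor Twist2 without batch 3 (0.0679, edgeR).

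Fibronectin (Fn1) stood apart within these genes: it was 4.76-fold lower than in EGF medium (adjusted p = 1.71e-05, edgeR) and not called against RW medium (log2 difference -0.33 ± 0.20, adjusted p = 0.273). Of 23 tested matrix proteases and inhibitors 16 were called lower and 10 below both (12.1% and 6.23% of all tested genes). Mmp19 had 1.70, 2.63 and 3.39 CPM in combined, 4.42, 7.55 and 11.7 CPM in EGF and 4.71, 8.67 and 11.1 CPM in RW medium, with no overlap. Mmp13, a collagenase, and Mmp12, the macrophage elastase, differed by -1.89 and -1.72 on the log2 scale. Mmp13 was not called without batch 1 (adjusted p = 0.0625) or batch 3 (0.0703), nor Mmp12 without batch 2 (0.156, edgeR). Of 14 pericyte and Schwann cell markers 8 were called lower, 5 below both and 1 higher, the last no larger a share than the 12.2% of all tested genes. Rgs5, of pericytes, was 3.43-fold lower than in EGF and 1.85-fold lower than in RW medium. Of 14 tested myeloid markers 6 were called lower and 4 below both, while their summed level was 383 to 755 CPM in combined, 706 to 1056 CPM in EGF and 228 to 366 CPM in RW medium, overlapping between combined and EGF medium and wholly above RW medium. That sum does not stand for most members: 13 of the 14 estimates against the mean were lower. Against RW medium the list's median was -1.82, with 1 member called higher and 6 lower (11.0% and 11.9% of all tested genes). The 6 called lower against the mean became 3 without WT combined replicate 2, WT combined replicate 3 or KO combined replicate 3, 10 without WT EGF replicate 1, and 3, 2 and 1 without batches 1, 2 and 3. The 4 below both became 0 without WT combined replicate 1, 2 or 3, KO combined replicate 2, KO EGF replicate 1, WT RW replicate 2 or KO RW replicate 1, ranged up to 5 without the other single libraries, and became 1 without any 1 batch. The matrix protease count of 16 was 10 without batch 1, and the pericyte and Schwann cell count of 8 was 5 without batch 2. How far the share of these cells bears on the differences of the other lists was not tested.

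**Figure D3:**
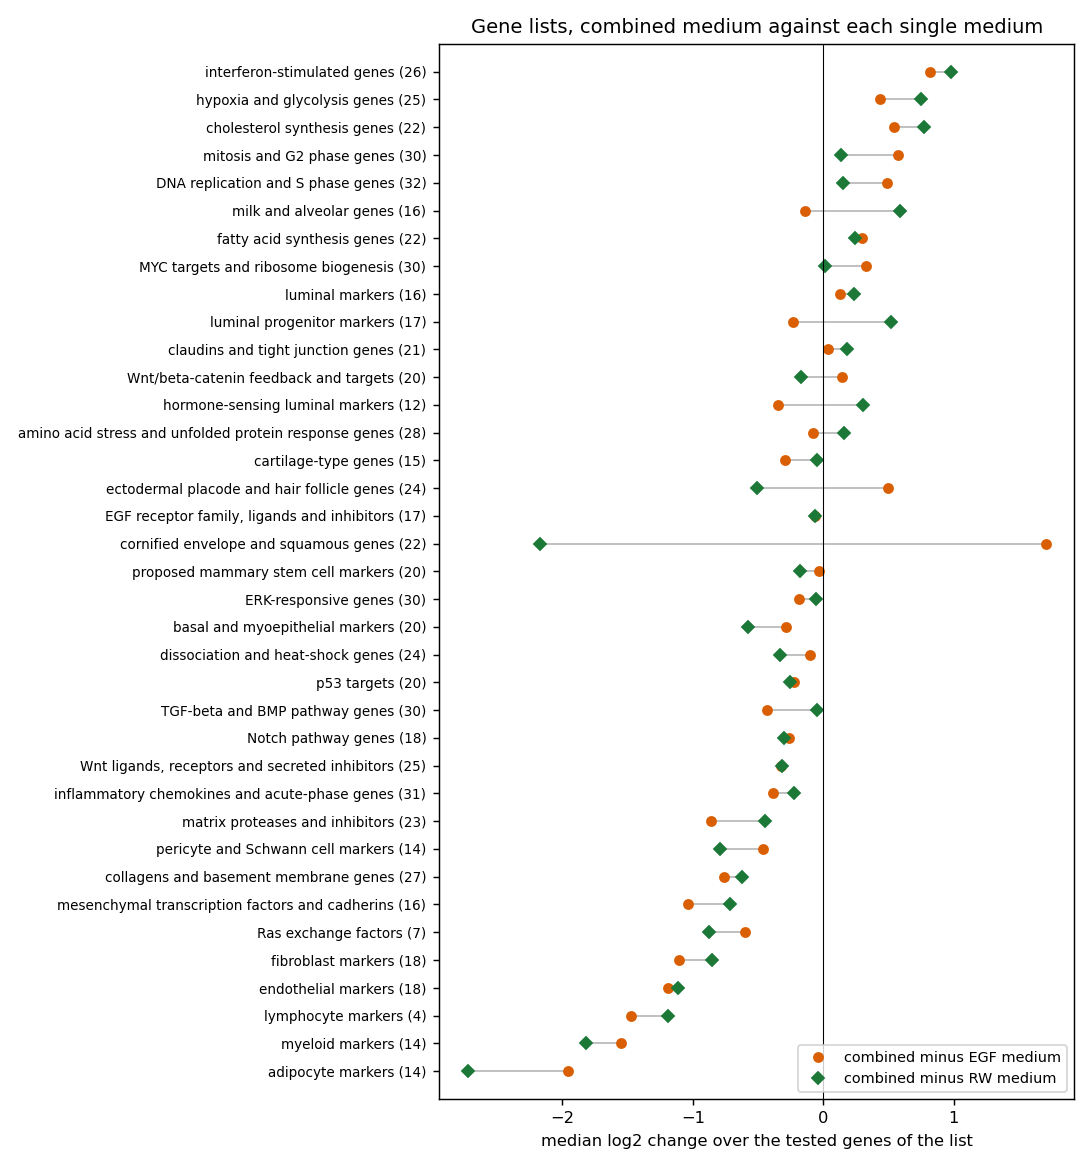
Median log2 difference of each gene list in combined medium from EGF medium (circles) and from RW medium (diamonds), with the number of tested members in brackets. Cholesterol synthesis, interferon-stimulated and hypoxia genes lie above 0 in both comparisons and adipocyte, endothelial and fibroblast markers below 0 in both, while mitosis genes (0.57 and 0.14) and cornified genes (1.71 and -2.17) differ between them.

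Some epithelial and signaling genes were also below both. Of 20 basal and myoepithelial markers 2 were called higher and 7 lower, 1 above both and 6 below. Over all tested genes the shares were 12.2% higher, 12.1% lower, 3.33% above both and 6.23% below both. The 2 higher and the 1 above are near those shares. The smooth muscle contractile genes Myh11, Tagln and Lmod1 were 2.36-fold, 2.22-fold and 2.21-fold lower than in EGF medium and 2.13-fold, 1.65-fold and 1.59-fold lower than in RW medium, and vessel walls express them too. The keratin Krt5, in contrast, lay between the media, with medians of 2142 CPM in combined, 1386 CPM in EGF and 3010 CPM in RW medium. Egfr, the receptor of the added EGF, had 110, 123 and 154 CPM in combined, 152, 157 and 201 CPM in EGF and 134, 152 and 189 CPM in RW medium, with slight overlap. It was 1.30-fold lower than in EGF (adjusted p = 0.000875, edgeR) and 1.21-fold lower than in RW medium (adjusted p = 0.00860). Of 17 tested genes of the EGF receptor family, its ligands and inhibitors, 2 were called higher, 1 lower and 1 below both. These are no larger shares than those of all tested genes. Of 7 tested Ras exchange factors Rasgrp3, Rasgrf2 and Rasgrp2 were called lower, and Rasgrp3 and Rasgrf2 were below both. Rasgrf2 was not called without batch 1 (adjusted p = 0.0676), nor Rasgrp2 without batch 1 (0.0828) or batch 3 (0.13, edgeR). Rasgrp3, a relative of the deleted gene, had 3.70, 6.51 and 7.56 CPM in combined, 8.22, 9.67 and 13.8 CPM in EGF and 11.6, 14.0 and 17.1 CPM in RW medium, with no overlap. Sos1 and Sos2, the exchange factors recruited by growth factor receptors, and Rasgrf1 were not called, and neither was Rasgrp1 itself (log2 difference -1.02 ± 0.77, adjusted p = 0.382, edgeR).

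Of 20 p53 targets 9 were called lower and 0 higher, 6 of them below both. Over all tested genes the shares were 12.2% higher, 12.1% lower, 3.33% above both and 6.23% below both, here and for the lists that follow. Gdf15, a stress-induced secreted factor, had 2.46, 3.23 and 4.91 CPM in combined, 5.11, 8.44 and 11.6 CPM in EGF and 5.41, 7.01 and 12.2 CPM in RW medium, with no overlap. The death receptor gene Fas differed by -0.50 ± 0.10 from the mean of the single media, and Cdkn1a, the p21 inhibitor of the cell cycle, by -0.45 ± 0.10, called against RW medium and not against EGF medium, and not called against their mean without batch 2 (adjusted p = 0.0583, edgeR). The 6 below both became 2 without WT combined replicate 1 or 3 and 3 without KO combined replicate 2, and 3, 3 and 1 without batches 1, 2 and 3. Of 18 tested Notch pathway genes 11 were called lower and 6 below both, led by Notch4, a receptor of endothelium, at 2.21-fold below EGF and 2.04-fold below RW medium. The 11 became 6, 6 and 7 and the 6 below both became 2, 1 and 4 without batches 1, 2 and 3. Of 31 tested inflammatory and acute-phase genes 10 were called lower and 5 higher, 7 below both and 2 above, the 10 lower becoming 6 and the 7 below both 4 without batch 3. The 5 higher are near the share of all tested genes. Hp (haptoglobin), which binds free hemoglobin, had 124, 148 and 182 CPM in combined, 265, 484 and 606 CPM in EGF and 269, 418 and 692 CPM in RW medium, with no overlap. Saa3, a serum amyloid A gene with close relatives and so uncertain, was 3.39-fold and 2.64-fold lower, and the chemokine Cxcl14 was 4.70-fold lower than in EGF and 1.78-fold lower than in RW medium. Saa3 was not called without batch 1 (adjusted p = 0.0603) or batch 3 (0.0792, edgeR). Greb1, a target of the estrogen receptor, was below both at 2.27-fold and 1.58-fold. The 12 tested hormone-sensing luminal genes were mixed, with 4 called higher and 4 lower, and 1 below both. Against EGF medium 1 was higher and 6 lower, and against RW medium 6 were higher and 2 lower, with medians of -0.34 and 0.30. Over all tested genes 13.4% were higher and 14.5% lower against EGF medium, and 11.0% and 11.9% against RW medium. The 1 higher and the 2 lower are near those shares. Leaving out 1 batch gave 2 to 3 higher and 2 to 4 lower against the mean.

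Many genes called against the mean yet not beyond both were ones on which EGF and RW medium differ. EGF and RW medium differed in 4355 genes, 2211 higher (12.9% of those tested) and 2144 lower in EGF (12.5%). Among these the combined medium was on the EGF side of the midpoint in 45.3%, 51.1% of the genes higher in EGF and 39.3% of those higher in RW medium. The 6 sets gave 46.7% ± 5.24 (SD, n = 6), with 53.7% and 53.2% in batch 1 of KO and WT and 42.4% to 44.5% in the other batches, so that the majority changed side with the batch. It was 38.8% without batch 1 and 57.4% without batch 3.

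Several milk and ERK-linked genes, named because they differed from the mean of the single media, lay near EGF medium, while their lists were mixed. Of 16 tested milk and alveolar genes 7 were called higher and 2 lower against the mean of the single media (12.2% and 12.1% of all tested genes), with 3 higher and 3 lower against EGF and 8 higher and 1 lower against RW medium, and the medians were -0.14 from EGF and 0.59 from RW medium. The 7 became 4 without batch 3. Of 30 ERK-responsive genes 6 were called higher and 1 lower against the mean, 3 higher and 3 lower against EGF and 8 higher and 3 lower against RW medium, with medians of -0.19 and -0.058. Over all tested genes 13.4% were higher and 14.5% lower against EGF medium, and 11.0% and 11.9% against RW medium. In the ERK list the 3 higher and 3 lower against EGF, the 3 lower against RW medium and the 1 lower against the mean are no larger shares. In the milk list the 3 higher and 3 lower against EGF medium and the 2 lower against the mean are near the shares of all tested genes. Bpifb5, of a family of secreted lipid-binding proteins, had 23.4, 42.8 and 66.0 CPM in combined, 30.0, 47.1 and 68.0 CPM in EGF and 0.393, 0.832 and 1.52 CPM in RW medium. The combined and EGF libraries overlapped broadly, and both stood apart from the RW libraries, with combined 48.5-fold over RW medium. Csn3 (kappa-casein), which stabilizes milk micelles, had 299, 420 and 765 CPM in combined, 441, 577 and 717 CPM in EGF and 8.60, 13.9 and 32.3 CPM in RW medium. Its log2 difference was -0.33 ± 0.20 from EGF (adjusted p = 0.277, edgeR) and 4.92 ± 0.24 from RW medium. Lalba, the cofactor of lactose synthesis, followed the same order with medians of 7.40 CPM in combined, 9.32 CPM in EGF and 0.439 CPM in RW medium. Etv5, an ETS factor downstream of ERK, had 114, 140 and 200 CPM in combined, 93.7, 161 and 173 CPM in EGF and 9.02, 12.9 and 15.9 CPM in RW medium. Its relative Etv4 lay likewise near EGF medium, whereas Etv1 was lower than in EGF (log2 difference -0.58 ± 0.12) and higher than in RW medium (3.09 ± 0.14). Col2a1, a cartilage collagen, and the pore-forming claudin Cldn2 were not called against EGF medium and were 15.4-fold and 9.01-fold over RW medium. Of 15 tested cartilage-type genes 0 were higher and 6 lower against EGF medium (median -0.29), and 7 higher and 2 lower against RW medium. Of 21 claudin and tight junction genes 6 were higher and 2 lower against EGF medium, and 7 higher and 2 lower against RW medium. In both lists the 2 lower are near or under the shares of all tested genes. Pou2af1, a transcriptional coactivator of B cells, was 7.75-fold over RW medium and not called against EGF medium (1.65-fold, adjusted p = 0.191, edgeR), nor against the mean without batch 2 (adjusted p = 0.0582). Nrg2, a neuregulin ligand of ERBB receptors, was 8.86-fold over RW medium.

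At the other end, several Wnt-related genes, named because they differed from the mean of the single media, lay near RW medium. Wif1, a secreted Wnt inhibitor, had 132, 167 and 180 CPM in combined, 43.0, 47.6 and 63.5 CPM in EGF and 102, 150 and 208 CPM in RW medium. The combined range lay wholly within that of RW medium and above EGF medium, with log2 differences of 1.71 ± 0.12 from EGF and 0.11 ± 0.12 from RW medium (adjusted p = 0.577, edgeR). Tnfrsf19 (Troy), a Wnt target, was 6.02-fold over EGF medium and not called against RW medium, and Aldh1a1, a retinaldehyde dehydrogenase, was 3.68-fold over EGF medium. Their lists did not lie near RW medium as a whole. Among 20 tested Wnt targets 5 were called higher and 3 lower (12.2% and 12.1% of all tested genes), and 0 were above both. Against EGF medium 9 were higher and 3 lower, and against RW medium 4 were higher and 6 lower, with medians of 0.15 and -0.17. The 3 lower are near the share of all genes, and the 5 higher ranged from 1, without WT combined, KO combined or WT EGF replicate 3, to 6, without WT EGF replicate 1, and were 4, 1 and 1 without batches 1, 2 and 3. Of 25 tested Wnt ligands, receptors and secreted inhibitors 2 were called higher and 9 lower against the mean, the 9 becoming 1 to 10 without 1 batch. Against EGF medium 3 were higher and 11 lower, and against RW medium 5 higher and 11 lower, with a median of -0.32 in each. Over all tested genes 13.4% were higher and 14.5% lower against EGF medium, and 11.0% and 11.9% against RW medium. The 3 Wnt targets lower against EGF medium are near those shares. So are the 3 ligand, receptor and inhibitor genes higher against EGF medium, and the 2 higher against the mean are no larger a share than that of all tested genes. Atp13a5, Adcy5 and Dsc1, an ATPase, an adenylyl cyclase and a desmosomal cadherin, were instead low in both combined and EGF medium. Their medians were 1.23, 5.79 and 1.32 CPM in combined, 2.58, 10.5 and 1.37 CPM in EGF and 10.7, 47.5 and 15.2 CPM in RW medium. Ngfr, the low-affinity neurotrophin receptor of basal and Schwann cells, differed by -2.04 ± 0.44 from RW medium and by -1.21 ± 0.43 from EGF medium, not called (adjusted p = 0.0539, edgeR). Aldh1a1 was not called against the mean without batch 1 (adjusted p = 0.0679) or batch 2 (0.0572), nor Ngfr without batch 2 (0.0505, edgeR). Tnfrsf19 lost its call without WT or KO combined replicate 3 (adjusted p = 0.0874 and 0.0912), WT EGF replicate 3 (0.0507), WT RW replicate 3 (0.052), batch 2 (0.0518) or batch 3 (0.448, edgeR).

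Cell cycle genes were higher than in EGF medium and close to RW medium. Of 30 mitosis genes 22 were called higher against the mean of the single media, 28 against EGF and 1 against RW medium, with medians of 0.39, 0.57 and 0.14, and 1 was above both. Over all tested genes these shares were 12.2%, 13.4%, 11.0% and 3.33%, and the 1 above both is near the last of them. Cdc20, an activator of the anaphase-promoting complex, had 51.5, 85.6 and 112 CPM in combined, 36.4, 42.8 and 53.3 CPM in EGF and 49.5, 68.2 and 93.8 CPM in RW medium. Its combined and RW ranges overlapped broadly, and it lost its call against the mean without WT combined replicate 2 (adjusted p = 0.0547), KO combined replicate 3 (0.0578) or batch 2 (0.107, edgeR). Of 32 S phase genes 19 were called higher against the mean and 2 were above both, Tk1 (thymidine kinase, 1.32-fold and 1.45-fold) and Rrm2 (a ribonucleotide reductase subunit, 1.41-fold and 1.34-fold, not called without batch 2, adjusted p = 0.199, edgeR). Of 30 MYC target and ribosome biogenesis genes 15 were called higher, 25 against EGF medium, and Nhp2, a small nucleolar RNA protein, was the single member above both. The 15 became 9 without batch 1 and 6 without batch 3. The mitosis count of 22 became 11 without WT combined replicate 2 or KO combined replicate 3, 4 without batch 2, 11 without batch 3 and 0 without the batch term. The S phase count of 19 became 11 without WT combined replicate 2, 2 without batch 2, 7 without batch 3 and 0 without the batch term.

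Cornified envelope genes, of the skin-like squamous program, lay between the media. Of 22 tested members 11 were higher than in EGF medium (13.4% of all tested genes), 17 lower than in RW medium (11.9% of all) and 0 beyond both. Krt10, a keratin of the upper epidermis, had 6.03, 7.53 and 37.0 CPM in combined, 3.19, 4.65 and 5.58 CPM in EGF and 129, 284 and 671 CPM in RW medium. None of its media overlapped, and it was 2.60-fold over EGF medium and 25-fold below RW medium. Krtdap, a secreted protein of differentiating keratinocytes, had 1.60, 7.67 and 11.0 CPM in combined, 0, 0.0618 and 0.334 CPM in EGF and 6.10, 20.6 and 40.8 CPM in RW medium. It was higher than the mean of the single media, which was taken on the log scale, and Krt10 was lower. Krtdap was not called without batch 3 (adjusted p = 0.126), nor Krt10 without batch 1 (0.0603) or batch 2 (0.0938, edgeR). Of the 2091 higher genes 10 were lower when the mean was taken on the linear scale, and of the 2071 lower genes 0 were higher.

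Luminal lists held called genes in both directions. Of 16 luminal markers 7 were called higher and 2 lower (12.2% and 12.1% of all tested genes), 1 above both and 1 below (3.33% and 6.23% of all). The 2 lower, the 1 above and the 1 below are near those shares. Of the 16 estimates 13 were higher and 3 lower, and the set medians from the mean of the single media were 0.065 to 0.33. The list's median was above RW medium in 6 and above EGF medium in 4 of the 6 sets. Foxa1, a pioneer factor of hormone-sensing cells, was 1.95-fold over RW medium and Krt19 1.55-fold below it. Neither held its call without a batch, batch 2 for Foxa1 (adjusted p = 0.0824) and batch 3 for Krt19 (0.0502, edgeR). The 7 became 4 without WT combined replicate 1 or 3, KO combined replicate 1 or 3 or batch 1, and 2 without batch 3. Of 17 tested luminal progenitor genes 7 were called higher and 2 lower, with medians of -0.23 from EGF and 0.52 from RW medium, and these 7 became 11 without batch 2 and 4 without batch 3. The estrogen receptor gene Esr1 was 1.86-fold lower than in EGF medium (adjusted p = 6.72e-05, edgeR) and not called against RW medium, nor against the mean without batch 3 (adjusted p = 0.102). Of 24 heat-shock genes, which report on dissociation stress, 2 were called higher and 2 lower, no larger shares than those of all tested genes, with 0 beyond both and a median of -0.19, 7 estimates being higher and 17 lower.

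**Figure D4:**
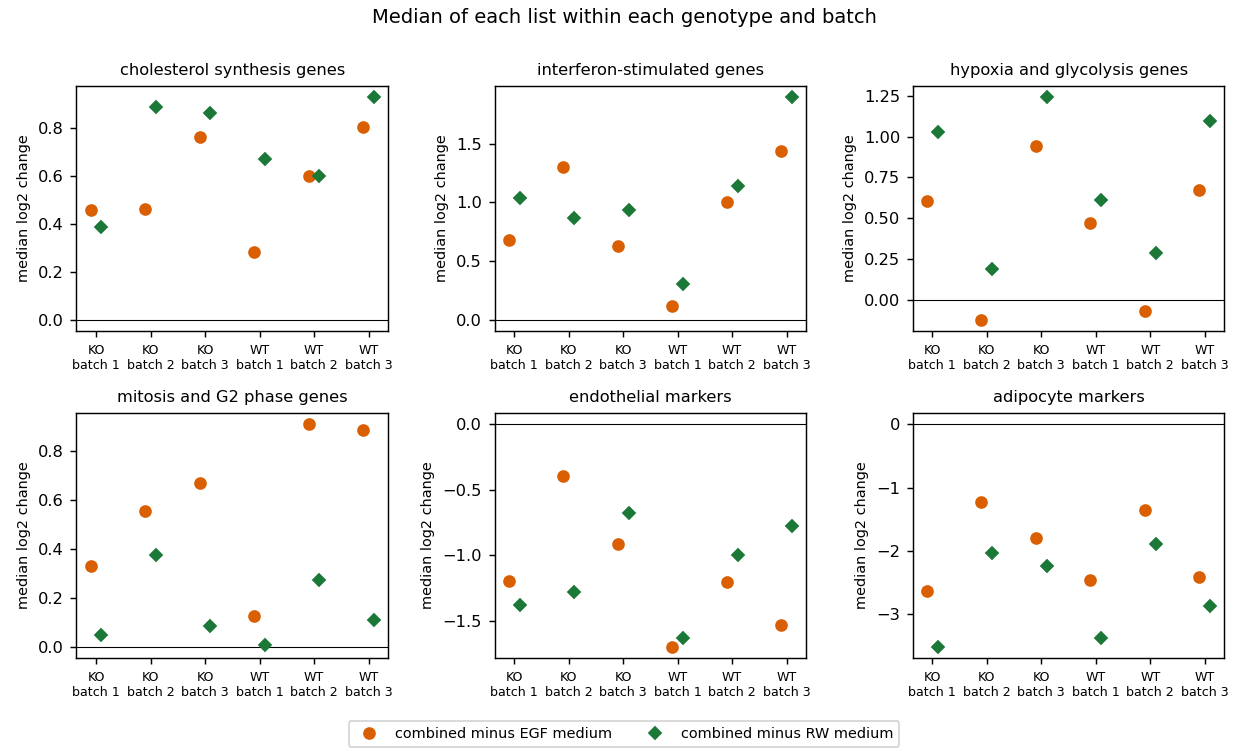
Median log2 difference of combined medium from EGF medium (circles) and from RW medium (diamonds) for 6 gene lists in each of the 6 sets (KO batches 1 to 3, then WT batches 1 to 3). Cholesterol synthesis genes lie above 0 and endothelial and adipocyte markers below 0 in every set, whereas hypoxia genes are below 0 against EGF medium in batch 2 of KO (-0.12) and WT (-0.067).

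The response was then compared between the genotypes, asking whether RasGRP1 alters it. Within KO organoids 853 genes were higher (4.99%) and 964 lower (5.64%) in combined medium than in the mean of the single media, against 779 higher (4.56%) and 1028 lower (6.01%) in WT organoids. The KO total of 1817 was 1112 without combined replicate 1 and 853 without combined replicate 3, and the WT total of 1807 was 1038, 1035 and 914 without combined replicates 1, 2 and 3. The KO and WT totals were 614 and 892 without batch 1, 597 and 528 without batch 3, and 88 and 175 without the batch term. Of the KO calls 848 of 853 higher and 959 of 964 lower genes had the same direction in WT, where 52.0% of all tested genes were higher and 48.0% lower, and 62.4% and 75.8% were also called there, against 4.56% and 6.01% of all tested genes. Of the WT calls 775 of 779 and 1026 of 1028 had the same direction in KO, where 51.9% of all tested genes were higher and 48.1% lower, and 68.3% and 71.1% were also called, against 4.99% and 5.64% of all tested genes. The genotypes share no library in this comparison but share batches and the estimate of spread. The difference between the genotypes was called for 0 of 17092 genes (0%) in edgeR, with 272 genes at an unadjusted p under 0.05, and for 1 gene in DESeq2, the immunoglobulin gene Ighg2b, whose counts are too sparse for its fitted log2 difference of 31.3 to be read as a size. Sema3b differed by 2.33 in KO and 2.29 in WT, Car9 by 2.42 and 2.15, and Hcar1 by -2.87 and -2.75. A p that misses the threshold does not show that the genotypes respond alike, and 3 libraries in each group limit what could be detected.

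**Figure D5:**
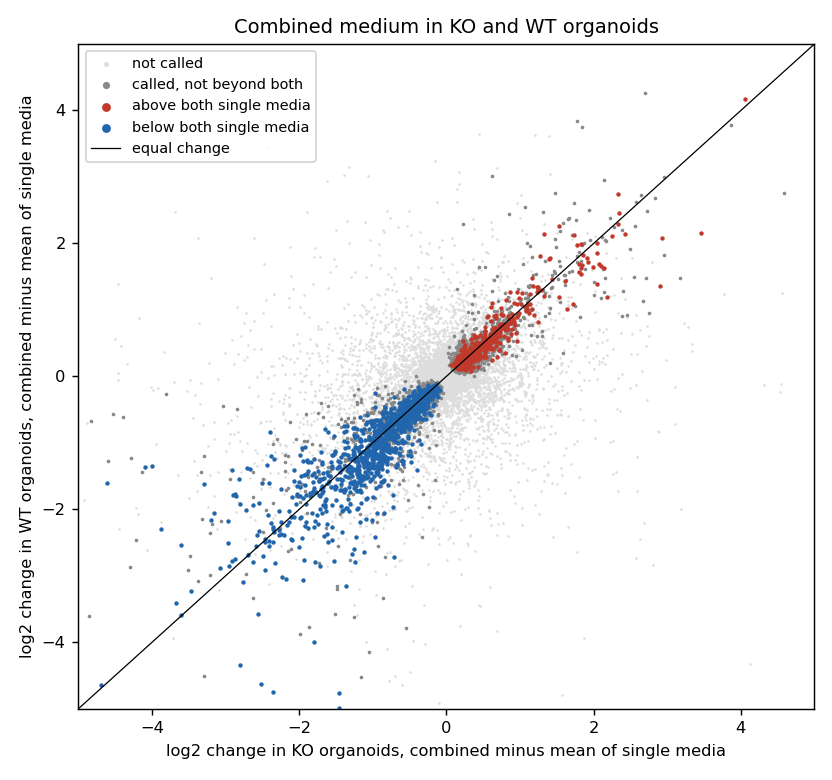
Log2 difference of combined medium from the mean of EGF and RW medium in KO (x axis) and WT (y axis) organoids, 1 point for each tested gene except the 58 outside the axes, with the genes above both and below both in color. The colored points follow the line of equal change, which is favored by their choice from contrasts averaged over both genotypes. Between the genotypes 0 genes were called.

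Promoters of all genes beyond both were searched for 3 further motifs of the pathways that the media stimulate. RefSeq promoters were found for 440 of 570 genes above both and 755 of 1064 below both. The AP-1 letters TGANTCA were in 6.88% of promoters of genes above both and 6.28% of those below, against 5.66% of those of all tested genes. The ETS letters CCGGAAG were in 14.8% of promoters of genes above both and 5.07% of those below, against 15.4% of those of all tested genes. The TCF/LEF letters CTTTGAT were in 1.94% of promoters of genes above both and 2.84% of those below, against 2.56% of those of all tested genes. These shares count letters on both strands of 300 bases and were not tested.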

How the data were processed

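Organoid RNA was sequenced as single-end reads of 50 bases, per the labels. The deposited table gives raw counts of reads per Ensembl gene for 55536 genes in 18 libraries. STAR, DESeq2 and GRCm38 are named in the submitters' processing notes, while the counting tool, annotation release and strand setting were not given in the sources used here, so reads of overlapping antisense genes cannot be told apart. A further 36 deposited columns of per-sample values were not used. Symbols came from GENCODE M21 for 55450 identifiers.

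Counts were filtered with filterByExpr (minimum count 10, minimum total 15), normalized with TMM and fitted with the robust quasi-likelihood method of edgeR 4.0.16 under R 4.3.3, with 1 mean per group and the batch as a block. Tests were two-sided with Benjamini-Hochberg adjustment over the 17092 genes of each contrast. The batch number pairs the libraries by the labels: deviations from group means correlated at 0.175 to 0.453 between libraries of 1 batch in all 45 pairs, and at -0.285 to -0.005 between batches. Deviations within a group sum to 0, so the negative values between batches follow in part from the positive ones within a batch. The single media were averaged on the log2 scale. Levels are CPM.

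The members, the 37 gene lists and the rule for named genes were chosen with earlier results of these data known. Named genes, with predicted genes and those under 4 CPM on average left out, were the 12 with the largest smaller difference above both and the 12 below both, the 5 highest and 5 lowest other called genes, and up to 4 called members of each list, or all of a short list. The fit was tested on simulated counts with known changes. Alternatives were DESeq2 1.42.0, relative log expression normalization, other filters, no block, each genotype alone, and each library or batch left out. Motifs were sought with fixed letters from 250 bases before to 50 after each RefSeq start. The values of 1 member of the cholesterol synthesis list are not reported here.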

Additional observations from a re-analysis of the deposited data

Results flagged for a closer look

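In 3 of 102 tested groups of 6 libraries of 1 medium, covering 34 named genes, 1 library stood far from the rest, and chance gives about 1 in 20 groups. Bhlha15 was lowest in combined medium in KO replicate 2 at 4.83 CPM, while the others lay between 12.2 and 19.9 CPM. Oas1a was highest in EGF medium in KO replicate 3 at 20.7 CPM, while the others lay between 2.00 and 4.76 CPM. Car9 was highest in EGF medium in the same library at 11.8 CPM, while the others lay between 5.77 and 7.15 CPM.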

How the results depend on the processing

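Without the replicate block 1277 genes were called against the mean of the single media (35.0% of them higher, against 2091 of 4162 with it), 497 beyond both (87 above, 410 below), 88 in KO, 175 in WT and 2022 between EGF and RW medium. All 1277 and all 497 were among the genes called with the block, and leaving out that term adds the spread between batches to the residual. DESeq2 called 1 gene in the genotype difference. Leaving out single libraries gave 3179 to 4246 genes against the mean and 1303 to 1626 beyond both, and leaving out a batch 1822 to 3361 and 738 to 1352, with 143 to 579 above and 595 to 1068 below over both kinds. Over both kinds KO gave 597 to 1895, WT 528 to 2055 and EGF against RW medium 2134 to 4405. The share nearer EGF medium was 38.8% to 57.4% over left-out batches and was not computed for left-out libraries. The other normalization, filters and DESeq2 kept these counts within 1.5 times. Of the 24 genes named as farthest beyond both, 9 to 12 above and 9 to 12 below remained beyond both under every fit with both genotypes. The estimates that turned direction were of genes never called. Sos1 (-0.023 in WT alone) ran from -0.0065 without batch 2 to 0.064 without batch 1, Sos2 from -0.0037 without batch 1 to 0.053 without WT ERW replicate 2, and Cd4 from -1.92 without batch 2 to 0.080 without KO EGF replicate 1. The cause was not tested. With 6 libraries per medium and 3 batches, differences of genes under about 4 CPM carry wide errors.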
